A study of Mus musculus with 12 samples.

Results

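The genes described here encode the nuclear pore and the carriers that move proteins and RNA through it: nucleoporins, importins, transportins, exportins and the proteins of the Ran cycle. They were taken from the gene names (Nup, Kpna, Kpnb, Ipo, Xpo and Tnpo followed by a number, with Xpot, Ran, Ranbp1, Ranbp2, Ranbp3, Rangap1, Nutf2 and Cse1l) and had to reach 1 FPKM in at least 2 of the 12 libraries. FPKM counts fragments scaled to transcript length and to the depth of the library, so levels can be set side by side between genes. Such a name was carried by 49 of the 54537 genes measured, and 47 of these reached the level. The other 2 were Nup210l, a testis relative of Nup210, which did not exceed 0.265 FPKM in any library, and Kpna7, the importin alpha of the oocyte, which was listed at 0 in 10 libraries and at 0.12 and 0.299 FPKM in the 1343KO day 8 libraries. The lowest member, Nup210, lay between 2.39 and 12.3 FPKM.

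The samples are poly(A) RNA of mouse embryonic stem (ES) cells, the pluripotent cells of the early embryo kept in culture, and of embryoid bodies, the floating aggregates in which they differentiate. One line was wild type (WT). The other carries the genotype label WT+1343KO-a14 throughout, with a14 read here as the name of 1 clone, and is written 1343KO below. What the number and the leading WT+ stand for is not in the labels. Both lines were sampled on gelatin-coated plates with serum and leukaemia inhibitory factor (LIF), which holds ES cells undifferentiated, at day 0. Embryoid bodies were taken at days 8 and 16 from suspension cultures in medium with serum and no LIF, with 2 libraries in each of the 6 groups. The series is about knockouts of long noncoding RNAs, and the comparisons ask how the transport genes changed along differentiation in each line and how the lines differed at each day.

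Proteins above a small size cross the nuclear envelope through the nuclear pore complex, a channel of many nucleoporin copies. The Y complex and the inner ring form its scaffold, nucleoporins with phenylalanine-glycine repeats fill the channel, and filaments and a basket extend to the cytoplasm and into the nucleus. Importins and exportins bind their cargo and move through the channel, and the small GTPase Ran gives the direction: Ran bound to GTP, made in the nucleus by the chromatin-bound exchange factor Rcc1, releases cargo from importins and loads exportins, and Rangap1 with Ranbp1 and Ranbp2 has the GTP hydrolysed in the cytoplasm. Nutf2 carries Ran bound to GDP back into the nucleus, and Cse1l returns importin alpha to the cytoplasm. Dividing ES cells express these genes at high levels.

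The sequences before the starts of 6 members, picked by hand, are shown. Of these genes 4 (Ran, Ranbp1, Ipo5 and Xpo5) fell in WT over 16 days by between 1.50 and 1.87 on the log2 scale, while Ipo9 and Ranbp2 changed the least among members. Nup93, Nup37 and Nutf2 fell by like amounts and had a promoter to search but are not shown, so the 6 do not stand for all members. The windows are RefSeq promoters of GRCm38.p6, in the gene's own direction from 5′ to 3′, up to 250 bases before the start and without bases inside the annotated gene. In Ran, Ranbp1, Xpo5 and Ipo9 the bases after the RefSeq start were found in a GENCODE transcript of the gene. In the other 2 they were not, and the RefSeq start lies before the annotated gene, by 30 bases in Ipo5 and by 68 in Ranbp2. They lie at chr5:129019906-129020068 (plus strand) for Ran, chr16:18248733-18248944 (minus) for Ranbp1, chr14:120910944-120911193 (plus) for Ipo5, chr17:46202561-46202781 (plus) for Xpo5, chr1:135430500-135430749 (minus) for Ipo9 and chr10:58446602-58446851 (plus) for Ranbp2. Capitals mark letters of 6 motifs searched on both strands, those of NRF1, the E-box, the CCAAT box, E2F, the GC box and ETS factors, each spelled out with its count. A longer run of capitals can hold overlapping matches.
Ran: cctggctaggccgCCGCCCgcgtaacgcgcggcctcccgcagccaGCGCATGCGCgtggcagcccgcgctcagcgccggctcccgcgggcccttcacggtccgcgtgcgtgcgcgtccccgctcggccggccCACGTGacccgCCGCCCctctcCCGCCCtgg
Ranbp1: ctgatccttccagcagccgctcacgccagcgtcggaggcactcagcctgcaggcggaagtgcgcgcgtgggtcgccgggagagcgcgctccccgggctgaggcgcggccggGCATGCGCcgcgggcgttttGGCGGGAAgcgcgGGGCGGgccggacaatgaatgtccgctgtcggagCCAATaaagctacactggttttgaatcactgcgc
Ipo5: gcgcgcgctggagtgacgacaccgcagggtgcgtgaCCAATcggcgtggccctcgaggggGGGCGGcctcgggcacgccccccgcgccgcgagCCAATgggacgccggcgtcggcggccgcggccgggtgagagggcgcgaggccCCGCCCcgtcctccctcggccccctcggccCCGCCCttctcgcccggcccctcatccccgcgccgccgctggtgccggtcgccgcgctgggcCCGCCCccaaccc
Xpo5: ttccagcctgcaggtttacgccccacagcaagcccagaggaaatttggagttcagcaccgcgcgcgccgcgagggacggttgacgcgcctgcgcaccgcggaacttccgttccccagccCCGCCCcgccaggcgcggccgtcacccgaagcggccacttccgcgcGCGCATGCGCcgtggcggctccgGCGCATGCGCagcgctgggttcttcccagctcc
Ipo9: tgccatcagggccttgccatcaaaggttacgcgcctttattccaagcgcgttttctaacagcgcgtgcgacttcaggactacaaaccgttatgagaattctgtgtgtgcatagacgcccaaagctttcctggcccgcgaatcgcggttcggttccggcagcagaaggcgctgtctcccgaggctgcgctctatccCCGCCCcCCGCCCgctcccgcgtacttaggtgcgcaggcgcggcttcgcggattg
Ranbp2: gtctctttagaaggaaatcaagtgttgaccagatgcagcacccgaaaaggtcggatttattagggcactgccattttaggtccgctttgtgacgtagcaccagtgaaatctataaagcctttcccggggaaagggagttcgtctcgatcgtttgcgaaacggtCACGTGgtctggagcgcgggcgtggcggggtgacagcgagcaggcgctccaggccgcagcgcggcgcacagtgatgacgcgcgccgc
In these windows Ran held an NRF1 match, an E-box and GC boxes, Ranbp1 held NRF1, CCAAT, E2F and GC box matches, and Xpo5 held 2 palindromic NRF1 matches and a GC box. Ipo5 held CCAAT and GC box matches, Ipo9 held only GC boxes and Ranbp2 only an E-box. Of the 37 members with a promoter in the table, 6 held the NRF1 letters GCATGCGC in the 250 bases before the start (16.2%; Nup107, Nup50, Nup62, Ran, Ranbp1 and Xpo5), against 2.32% of all 27025 genes' promoters. The E-box letters CACGTG were in 8 of the 37 (21.6% against 6.05% of all genes' promoters), and the letters CCAAT were in 17 (45.9% against 34.5%). The E2F letters GGCGGGAA were in 2 members (5.41% against 1.88%), Nup210 and Ranbp1. The GC box, with the letters GGGCGG, was in 24 members (64.9% against 32.9% of all). The ETS letters CCGGAAG were in 6 (16.2% against 7.05%). The 2 sides of these shares are unlike. For members the window nearest the annotated start was searched, and for all genes the first window listed. The members had to reach 1 FPKM, while all genes include those not expressed here, so an excess need not be particular to transport genes. A match is a description of the letters and not a bound site. Ipo8, Nup160 and Nutf2 held none of the 6 motifs and kept 36.6%, 35.0% and 30.9% of their WT day 0 level at day 16. The 6 members with the NRF1 letters kept 36.7% (Nup107), 50.4% (Nup50), 40.3% (Nup62), 32.1% (Ran), 28.0% (Ranbp1) and 33.5% (Xpo5). Nup93 and Nup37, which are not shown and lacked the NRF1 letters, kept 27.1% and 30.1%. Nup43, Xpo4, Nup35 and Cse1l, all with large falls in WT, had no promoter to search. Whether any motif goes with the fall was not tested.

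The 12 libraries had an estimated 4960000 to 8180000 fragments each, and between 12909 and 14069 genes reached 1 FPKM. Snhg3, the noncoding host gene of the small nucleolar RNA that the series title names, was listed at 8.31 to 61.1 FPKM in the WT libraries and at 0 to 1.57 in the 1343KO libraries. The 8 ES cell markers, Pou5f1, Sox2 and Nanog among them, had sums of 1965 and 1971 FPKM in WT at day 0, then 102 and 105, and finally 69.3 and 75.5 at day 16. In 1343KO these sums were 2096 and 2178 FPKM, then 1302 and 1314, then 1141 and 1160. The 8 fibroblast markers summed to 3829 to 3948 FPKM in WT at day 16 and to 51.2 to 55.4 in 1343KO, and the 8 extraembryonic endoderm markers to 9465 to 9536 and 87.2 to 101 FPKM. None of these 24 markers was at 0 in both libraries of a group. An embryoid body is a mix of cell types, and in such bulk RNA fewer cells of a type cannot be told apart from less RNA per cell.

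In WT, nuclear transport genes fell together. Summed over the 47 members, the WT libraries held 3359 and 3392 FPKM at day 0, 1906 and 1902 at day 8, and 1321 and 1361 at day 16. This was 0.700% and 0.705% of all FPKM at day 0 and 0.287% and 0.303% at day 16. By day 16, 44 of the 47 were lower than at day 0, none was higher, and 3 (Ipo4, Ipo9 and Ipo13) did not pass (limma on log2(FPKM + 1), adjusted p under 0.05 over all genes tested). Among all 16289 genes tested 28.5% were lower and 32.7% higher in this comparison. Among the 6945 genes whose mean was 10 FPKM or more 44.9% were lower. The members' median log2 change was -1.16, against 0.02 for all genes tested and -0.24 for genes at 10 FPKM or more, and 32 members had fallen past 2-fold. Of the 44 calls, 42 held in each of the 19 alternative fits, and those of Nup98 and Nup210 did not. The median member kept 43.9% of its WT day 0 level, from 21.8% for Nup43 to 93.7% for Ipo9.

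**Figure D1:**
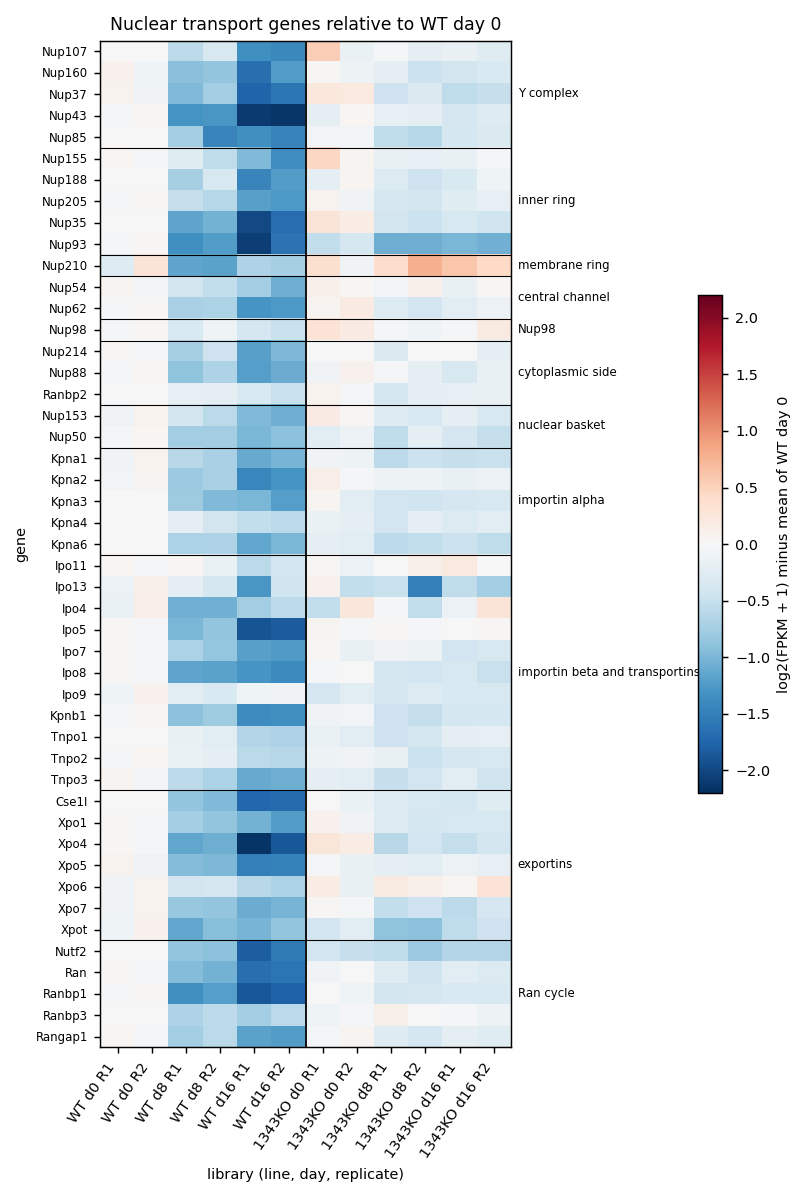
Each row is 1 of the 47 genes, grouped by role, and each column 1 of the 12 libraries; colour gives log2(FPKM + 1) minus the mean of the 2 WT day 0 libraries, blue for lower and red for higher. The WT day 8 and day 16 columns are blue in nearly all rows, and the 1343KO columns are paler, with Nup210 red in the 1343KO libraries of days 8 and 16.

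Of the 5 Ran cycle genes, Ran, Ranbp1 and Nutf2 had the highest levels. Ran (ENSMUSG00000029430, chromosome 5, 129020069 to 129024323 of GRCm38), the GTPase itself, was at 385 and 369 FPKM in WT at day 0, at 194 and 183 at day 8 and at 118 and 124 at day 16. The groups did not overlap, and the change to day 16 was -1.63 ± 0.07 (SE; limma adjusted p = 9.2e-08). Its transcript shares 15.4% of its stretches of 50 bases with Gm13461, which was listed at 29.1 and 32.8 FPKM in WT at day 0 and at 10.8 and 7.71 at day 16. Ranbp1 (ENSMUSG00000005732, chromosome 16, 18239784 to 18248732), which binds Ran-GTP and helps Rangap1 in its hydrolysis, was at 317 and 329, 127 and 139, and 87.7 and 93.2 FPKM at the 3 days. It fell by 1.83 on the log2 scale to day 16 (SE 0.06, limma adjusted p = 2.3e-08), of which 1.28 came by day 8. Ranbp1 overlaps the protein-coding model Gm49776 on the same strand and shares 24.8% of its transcript with other genes. Rangap1, the GTPase activating protein, went from 77.4 and 73.1 FPKM at day 0 to 32.6 and 31.6 at day 16 (-1.20 ± 0.08). Ranbp3, a cofactor of Xpo1, fell less, from 45.7 and 46.8 to 27.2 and 30.5 FPKM (-0.66 ± 0.09), and nearly all of that by day 8 (-0.63 ± 0.09). Nutf2, the carrier of Ran-GDP, went from 231 and 228 to 64.5 and 77.4 FPKM (-1.68 ± 0.10). The transcript of Nutf2 shares 91.1% of its stretches of 50 bases with other genes, nearly all with Nutf2-ps1 on chromosome 19, which was listed at 101 and 107 FPKM in WT at day 0 and at 32.5 and 35.0 at day 16, so the split of reads between them is uncertain.

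Among importins, Kpnb1 (ENSMUSG00000001440, chromosome 11, 97159714 to 97187881), the importin beta that carries importin alpha and its cargo, had the highest level. It was at 184 and 192 FPKM in WT at day 0, 99.6 and 109 at day 8 and 71.7 and 73.3 at day 16 (-1.36 ± 0.06 from day 0 to 16, limma adjusted p = 1.0e-07). Ipo5 (ENSMUSG00000030662, chromosome 14, 120911224 to 120947999), an importer of ribosomal proteins and histones, fell further, from 136 and 132 to 66.1 and 73.2 and then to 35.2 and 36.7 FPKM. Its log2 change to day 16 was -1.87 ± 0.07 (limma adjusted p = 3.5e-08), the largest of the 11 importins of the beta family and transportins. Ipo7, another importer of ribosomal proteins, went from 114 and 110 to 48.7 and 46.6 FPKM, and Ipo8, its closest relative, from 22.7 and 21.8 to 8.50 and 7.77. Ipo7 lies inside the antisense gene 1600010M07Rik, and without strand information reads of the 2 cannot be told apart.

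The 3 transportins fell by different amounts. Tnpo1, the carrier of RNA-binding proteins such as hnRNP A1, was at 67.0 and 67.8 FPKM at day 0 and at 42.6 and 41.7 at day 16 (-0.67 ± 0.07), and Tnpo2, its relative, at 42.0 and 44.9 and at 28.4 and 27.6 (-0.62 ± 0.10). Tnpo3, the carrier of SR splicing factors, fell by 1.10 (SE 0.09). Ipo9, an importer of histones, had 32.6 and 36.9 FPKM at day 0 and 32.3 and 32.8 at day 16 (-0.09 ± 0.09, adjusted p = 0.43). Its WT libraries of the first and last day lay close together, and no other member kept as large a share of its day 0 level. Ipo4 had 27.2 and 33.9 FPKM at day 0 and 17.5 and 20.0 at day 16 (adjusted p = 0.053), and 59.5% of its transcript is shared with the overlapping model Gm49378. Ipo13 had 11.2 and 13.4 against 4.44 and 8.85 FPKM (adjusted p = 0.07), a wide spread between replicates.

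The 5 importins alpha, the adaptors that read the classical nuclear localisation signal, all fell by day 16, with log2 changes from -1.37 ± 0.08 (Kpna2) to -0.57 ± 0.09 (Kpna4). Kpna2 (ENSMUSG00000018362, chromosome 11, 106988629 to 106999541), the adaptor that predominates in ES cells, was at 134 and 144 FPKM in WT at day 0, 79.2 and 84.1 at day 8 and 51.0 and 55.1 at day 16. Kpna4 was at 44.1 and 43.1, 37.2 and 32.8, and 29.6 and 28.7 FPKM. The unequal falls changed the mixture: Kpna2 made up 45.2% and 46.3% of summed importin alpha FPKM in WT at day 0 and 37.4% and 39.7% at day 16, and Kpna4 went from 14.9% and 13.9% to 21.6% and 20.7%. In the 1343KO libraries Kpna2 made up 48.6% to 52.3% and Kpna4 12.7% to 14.8% at all 3 days, ranges outside those of WT at day 16. Kpna2 shares 92.4% of its transcript with other genes, mostly Gm10184 on chromosome 17, listed at up to 38.7 FPKM and highest at day 0 in both lines.

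All 7 exportins fell in WT by day 16. Xpo1 (ENSMUSG00000020290, chromosome 11, 23256041 to 23298249), the exporter of proteins with a leucine-rich export signal, was at 163 and 159 FPKM at day 0, 95.0 and 87.1 at day 8 and 77.6 and 67.7 at day 16 (-1.14 ± 0.09). Cse1l (ENSMUSG00000002718, chromosome 2, 166906040 to 166946389), which recycles importin alpha, had a larger change, from 125 and 123 to 67.1 and 63.1 and to 36.9 and 37.6 FPKM (-1.71 ± 0.07, limma adjusted p = 8.8e-08). Xpo5, the exporter of precursor microRNAs, went from 35.7 and 31.7 to 11.2 and 11.3 FPKM (-1.50 ± 0.09). Xpo4, the exporter of the translation factor eIF5A, with 28.5 and 27.4 FPKM at day 0 and 5.51 and 6.93 at day 16, had the largest change of the 7 (-2.01 ± 0.12). It overlaps the protein-coding model Gm49361 on the same strand, which did not exceed 0.00917 FPKM. Xpo6, the exporter of actin with profilin, had the smallest change (28.5 and 31.5 to 19.4 and 18.2, -0.65 ± 0.13). Xpot, the tRNA exporter, reached its lower level by day 8 (65.7 and 75.5 FPKM, then 31.3 and 36.4, then 34.3 and 37.9), and its change from day 8 to 16 did not pass (0.09 ± 0.11).

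Among nucleoporins of the scaffold all 5 members assigned to the Y complex and all 5 assigned to the inner ring were lower at day 16. Their median changes were -1.45 and -1.34. Nup98 was counted apart from both. The Y complex list is not complete, as Nup133 was not among the names matched and Sec13 and Seh1l fall outside the name rule. In WT, Sec13 went from 53.5 and 51.7 FPKM at day 0 to 42.4 and 46.3 at day 16, and Seh1l from 60.4 and 60.4 to 33.5 and 29.7. Nup43 (ENSMUSG00000040034, chromosome 10, 7667503 to 7678881), a Y complex subunit, had the largest change of all 47 members, from 60.2 and 64.3 FPKM at day 0 to 24.3 and 24.9 at day 8 and 13.7 and 13.4 at day 16 (-2.12 ± 0.09, limma adjusted p = 1.0e-07). The whole of Nup43 (11379 bases) lies within Pcmt1 on the other strand, and without strand information reads of the 2 cannot be told apart. Nup107, in the stem of the Y, went from 36.1 and 37.0 to 13.7 and 13.1 FPKM. In the inner ring Nup93, which links the ring to the channel, went from 80.0 and 83.7 to 18.6 and 25.8 FPKM (-1.85 ± 0.13) and Nup205 from 38.8 and 39.8 to 16.5 and 15.7 (-1.24 ± 0.08). Nup35 went from 33.7 and 33.2 to 7.66 and 9.74 FPKM, and it shares 83.0% of its transcript with Gm4353. Of the repeat nucleoporins, Nup62, the organiser of the central channel, went from 64.6 and 66.5 to 26.0 and 26.8 FPKM (-1.28 ± 0.08). It overlaps Il4i1 on the same strand, which did not exceed 2.32 FPKM. The basket proteins Nup153 and Nup50 fell by 1.02 (SE 0.10) and 0.96 (SE 0.12).

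Nup98 and Ranbp2 moved little by comparison. Nup98 is a mobile repeat nucleoporin, and its gene also encodes Nup96, a subunit of the Y complex. Nup98 was at 21.3 and 21.9 FPKM at day 0 and 16.5 and 15.0 at day 16 in WT (-0.43 ± 0.12, limma adjusted p = 0.011). Leaving out WT day 0 replicate 2 gave an adjusted p of 0.0534, and leaving out WT day 16 replicate 2 gave 0.0679. Ranbp2, the large protein of the cytoplasmic filaments, was at 37.2 and 38.0 and at 29.2 and 26.6 FPKM (-0.42 ± 0.09, limma adjusted p = 0.0024). Nup210 (ENSMUSG00000030091, chromosome 6, 91013068 to 91116829), the membrane nucleoporin known from muscle and neural differentiation, had the lowest level, in WT 5.30 and 8.38 FPKM at day 0, 2.43 and 2.39 at day 8 and 3.81 and 3.66 at day 16. Its day 8 libraries were the lowest and its day 0 libraries the highest, and the fall to day 8 passed (-1.17 ± 0.23, limma adjusted p = 0.0021). The lower level at day 16 (-0.70 ± 0.23, adjusted p = 0.025) did not pass with any of 3 libraries left out: WT day 0 replicate 2 (adjusted p = 0.188) and WT day 16 replicates 1 and 2 (adjusted p = 0.0757 and 0.0922).

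**Figure D2:**
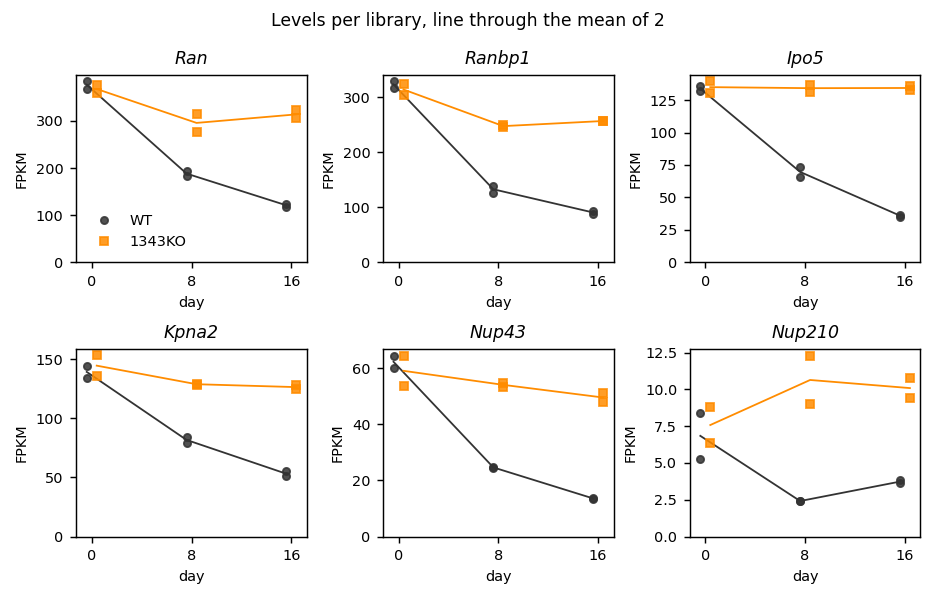
FPKM (vertical axis, from 0) by day for 6 genes, with 1 point per library and a line through the mean of the 2 libraries of each group; WT in dark circles and 1343KO in orange squares. Ran, Ranbp1, Ipo5, Kpna2 and Nup43 start together at day 0 and part by day 8, and Nup210 is above WT in all 1343KO libraries of days 8 and 16.

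Much of the WT change was in place by day 8, and more followed. At day 8, 40 of the 47 members were lower than at day 0 and none was higher, with a median change of -0.76. Of all genes tested 24.5% were lower and 26.8% higher. Of the 6945 genes at 10 FPKM or more 2558 were lower and 1985 higher (median -0.12). From day 8 to day 16, 32 members were lower and none higher, with a median of -0.46. Of all genes tested 13.5% were lower and 14.1% higher. Of the 6945 genes 1694 were lower and 736 higher (median -0.13). The count of 32 members was 19 in a fit of the WT day 8 and day 16 libraries alone. Ipo5 fell by 0.93 in each of the 2 intervals, and Cse1l by 0.92 and then 0.79. Ranbp1, Xpot and Ipo8 had larger changes in the first interval (-1.28, -1.04 and -1.16) than in the second (-0.55, 0.09 and -0.19), a difference between intervals that was not tested.

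In the 1343KO line the summed level of these genes fell less. It was 3282 and 3180 FPKM at day 0, 2702 and 2602 at day 8 and 2705 and 2736 at day 16. Between day 0 and day 8, 20 members were lower and none higher (median -0.32). Of all genes tested 8.51% were lower and 15.0% higher, and of the 6945 genes at 10 FPKM or more 937 and 1363. Between day 0 and day 16, 16 members were lower and none higher (median -0.26), and no member had changed past 2-fold. Of all genes tested 8.6% were lower and 18.2% higher, and of the 6945 genes 946 and 1471. Between day 8 and day 16 no member passed in limma (median 0.05), against 0.602% of all genes tested higher and 0.203% lower. In that comparison 4 members were at an unadjusted p under 0.05, as were 2038 of all genes tested. The median member kept 83.2% of its day 0 level at day 16, from 58.8% for Nup37 to 133% for Nup210. The counts of lower members depended on single libraries: that of day 8 was 12 without 1343KO day 0 replicate 1 and 11 without 1343KO day 8 replicate 2. That of day 16 was 7 without 1343KO day 0 replicate 1, 8 without 1343KO day 16 replicate 1 and 9 without 1343KO day 16 replicate 2.

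The members called lower at day 16 of the 1343KO line in each of the 19 alternative fits were Kpnb1, Nup35, Nup37 and Xpo4. Kpnb1 was at 178 and 180 FPKM at day 0, 137 and 131 at day 8 and 143 and 144 at day 16 (-0.32 ± 0.06 from day 0 to 16, limma adjusted p = 0.0045). Nup37, a Y complex subunit, was at 64.6 and 63.9, 39.7 and 43.9, and 37.2 and 38.4 FPKM (-0.75 ± 0.11). Xpo4 was at 33.7 and 31.6, 18.0 and 20.6, and 19.2 and 20.8 FPKM (-0.68 ± 0.12). These 3 genes reached their lower level by day 8, and their day 8 and day 16 libraries lay close together. Ran was at 359 and 377 FPKM at day 0, 314 and 277 at day 8 and 323 and 305 at day 16, and Ranbp1 at 324 and 304, 245 and 250, and 257 and 257. Ipo5 was at 140 and 131, 137 and 131, and 133 and 136 FPKM, and its groups of all 3 days overlapped (-0.01 ± 0.07 from day 0 to 16, adjusted p = 0.97).

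**Figure D3:**
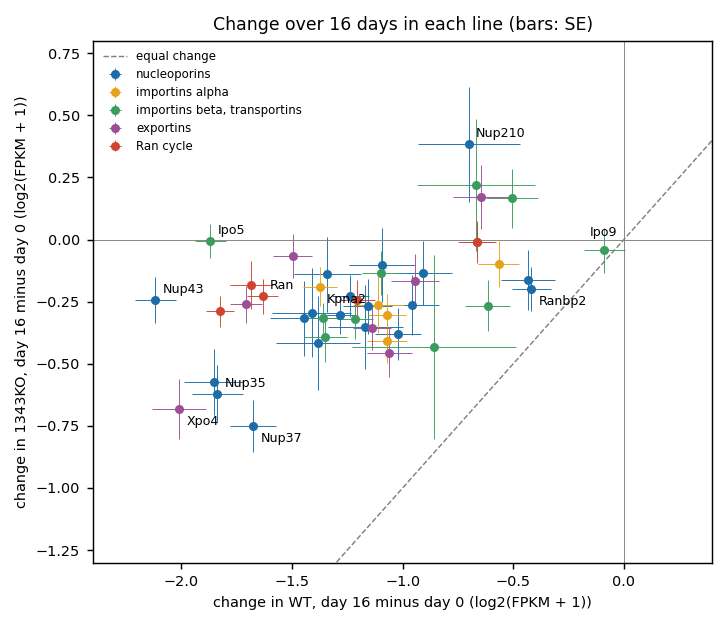
Change from day 0 to day 16 on the log2(FPKM + 1) scale in WT (horizontal) and 1343KO (vertical) for each of the 47 members, coloured by family, with standard errors as bars; the dashed line marks equal change. All 47 points lie above the dashed line (46 with TPM or median-of-ratios scaling), those of Nup43 and Ipo5 farthest from it and that of Ipo9 beside it.

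At day 0 the differences between the lines were small. None of the 47 was higher in 1343KO and 1 was lower (1.59% and 2.12% of all genes tested were higher and lower), with a median of -0.05 and a range of -0.46 to 0.26. The libraries of the lines overlapped for Ran (359 and 377 against 385 and 369 FPKM) and Xpo1 (172 and 152 against 163 and 159), and those of Kpnb1 lay side by side (178 and 180 against 184 and 192). The member that passed was Nutf2 (ENSMUSG00000008450, chromosome 8, 105860580 to 105879330), with 170 and 162 FPKM in 1343KO and 231 and 228 in WT (-0.46 ± 0.10, limma adjusted p = 0.035). It lost the call in 11 of the 19 alternative fits, among them each fit without a day 0 library (adjusted p = 0.136 and 0.155 without WT replicate 1 or 2, 0.0914 and 0.168 without 1343KO replicate 1 or 2). It also lost it without either WT day 8 library (0.0601 and 0.0602) or either 1343KO day 16 library (0.0596 and 0.0595). Nup93, also on chromosome 8, was at 55.9 and 63.1 against 80.0 and 83.7 FPKM (-0.46 ± 0.13, adjusted p = 0.11). Chromosome 8 genes at 10 FPKM or more had a median difference of -0.41 at day 0 (378 genes), against 0.003 for genes of other chromosomes, and its part in these values was not tested. Tnpo2, the other member on chromosome 8, was at 39.9 and 41.1 against 42.0 and 44.9 FPKM.

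By day 8 the lines had parted. In 1343KO 28 of the 47 members were higher than in WT and 1 was lower, against 23.3% and 19.6% of all genes tested (34.4% higher among genes at 10 FPKM or more). The median was 0.38. Scaled to equal sums of FPKM per library (TPM), the median over all genes moved by -0.146 and the members' median was 0.19. With that scaling 32 members lay above 0 and 15 below, against 41 and 6 in the main fit. Then 17 members were called higher and 3 lower, while the shares of all genes given here are those of the main fit. The members with the largest differences were Nup210 (9.02 and 12.3 against 2.43 and 2.39 FPKM; 1.76 ± 0.23, limma adjusted p = 0.00026), Nup43 (54.8 and 53.2 against 24.3 and 24.9; 1.10 ± 0.09) and Ipo5 (137 and 131 against 66.1 and 73.2; 0.94 ± 0.07). Ranbp1 was at 245 and 250 against 127 and 139 FPKM (0.90 ± 0.06). In each of these 4 genes both 1343KO libraries were above both WT libraries. Tnpo1 was the 1 member called lower, at 48.8 and 51.4 against 60.0 and 56.7 FPKM (-0.22 ± 0.07, limma adjusted p = 0.026). Leaving out WT day 8 replicate 1 gave an adjusted p of 0.138, and leaving out 1343KO day 8 replicate 1 gave 0.125.

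At day 16, 44 of the 47 were higher in 1343KO, 1 was lower, and Ipo13 and Tnpo2 did not pass (28.5% of all genes tested were higher and 24.1% lower; 44.5% were higher among genes at 10 FPKM or more). The median difference was 0.90, with 19 members past 2-fold. With library factors from medians of ratios the median over all genes moved by -0.125 and the members' median was 0.71. Of the 45 calls, 40 held in each alternative fit, and those of Ipo4, Ipo9, Kpna4, Ranbp2 and Xpot did not. All 5 Ran cycle genes, 5 Y complex genes, 5 inner ring genes, 5 importins alpha and 7 exportins were higher, as were 8 of the 11 beta importins and transportins. The largest differences were in Ipo5 (133 and 136 against 35.2 and 36.7 FPKM; 1.87 ± 0.07, limma adjusted p = 7.4e-08), Nup43 (48.0 and 51.1 against 13.7 and 13.4; 1.79 ± 0.09) and Xpo4 (19.2 and 20.8 against 5.51 and 6.93; 1.55 ± 0.12). Ranbp1 (257 and 257 against 87.7 and 93.2 FPKM; 1.50 ± 0.06) and Nup35 (25.9 and 24.3 against 7.66 and 9.74; 1.44 ± 0.11) followed, and the libraries of the lines did not overlap in any of these 5 genes.

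**Figure D4:**
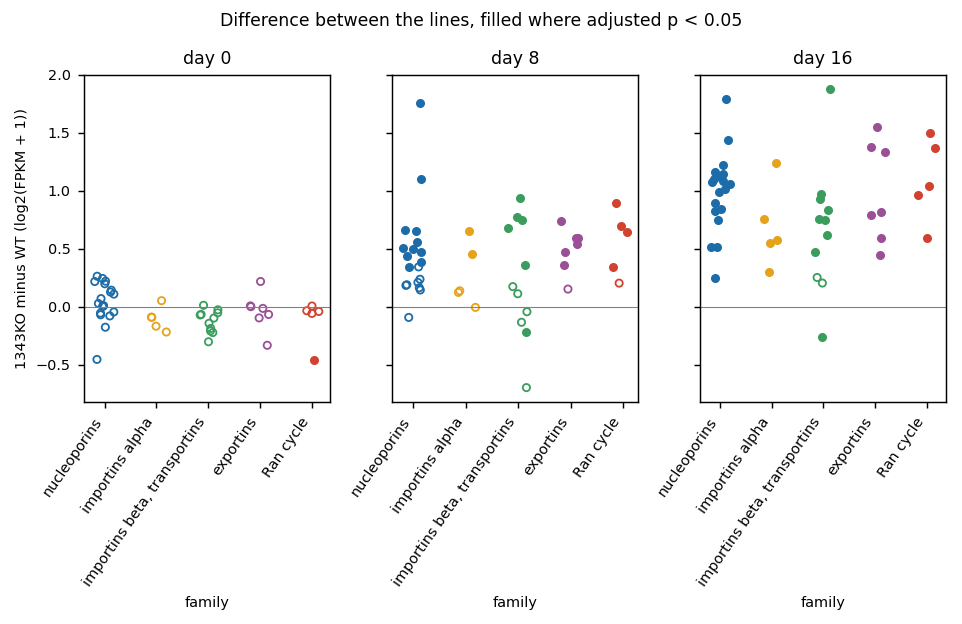
Difference between the lines, 1343KO minus WT on the log2(FPKM + 1) scale, at days 0, 8 and 16, with 1 point per member and the families side by side; filled points passed at an adjusted p under 0.05. The points lie around 0 at day 0, and at day 16 nearly all are above 0 and filled, with Ipo9 as the 1 filled point below 0.

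Ran at day 16 was at 323 and 305 FPKM in 1343KO against 118 and 124 in WT (1.37 ± 0.07), Kpna2 at 125 and 128 against 51.0 and 55.1 (1.24 ± 0.08), Kpnb1 at 143 and 144 against 71.7 and 73.3 (0.97 ± 0.06) and Xpo1 at 126 and 126 against 77.6 and 67.7 (0.79 ± 0.09). Of the nucleoporins, Nup62 was at 55.7 and 60.2 against 26.0 and 26.8 FPKM (1.10 ± 0.08), Nup107 at 32.4 and 30.2 against 13.7 and 13.1 (1.16 ± 0.19) and Nup210 at 10.8 and 9.39 against 3.81 and 3.66 (1.23 ± 0.23). Differences were smaller for Nup98 (20.9 and 24.9 against 16.5 and 15.0 FPKM, 0.51 ± 0.12) and Nup50 (34.4 and 30.7 against 21.7 and 23.2, 0.52 ± 0.12). Ipo9 was lower in 1343KO, at 27.3 and 26.9 against 32.3 and 32.8 FPKM (-0.26 ± 0.09, limma adjusted p = 0.039), a difference like that at day 0 (26.5 and 29.5 against 32.6 and 36.9 FPKM, -0.30 ± 0.09, adjusted p = 0.12). The Ipo9 call of day 16 ended without any 1 of the 4 day 16 libraries (adjusted p = 0.089 and 0.113 without WT replicate 1 or 2, 0.0987 and 0.124 without 1343KO replicate 1 or 2). Ranbp2 was at 33.3 and 33.4 against 29.2 and 26.6 FPKM (0.25 ± 0.09, limma adjusted p = 0.039). That call ended in 12 of the 19 alternative fits: its adjusted p was 0.593 with median-of-ratios factors, 0.176 without WT day 16 replicate 2, and 0.11 and 0.114 without either 1343KO day 16 library. Without either WT library of day 0 or of day 8 it was 0.0523 to 0.0535.

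The change over time itself differed between the lines. For day 0 to day 16 the change in 1343KO was above that in WT for 41 of the 47 members and below it for none (21.7% of all genes tested passed in that direction and 18.2% in the other; 37.3% of genes at 10 FPKM or more were above). The 6 that did not pass were Ipo4, Ipo9, Ipo13, Nup98, Ranbp2 and Tnpo2. The median difference in change was 0.93, against 0.08 for all genes tested and 0.30 for genes at 10 FPKM or more. Nup43 (1.87 ± 0.13), Ipo5 (1.86 ± 0.10), Ranbp1 (1.54 ± 0.09), Nutf2 (1.50 ± 0.14) and Cse1l (1.45 ± 0.10) had the largest values, with limma adjusted p from 1.8e-06 to 3.9e-05. For day 0 to day 8 the change in 1343KO was above that in WT for 20 members and below it for none, with a median of 0.43. Of all genes tested 15.6% were above and 12.7% below. Of the 6945 genes at 10 FPKM or more 1759 were above and 1006 below (median 0.17). Nup210 led the members to day 8 (1.61 ± 0.33, limma adjusted p = 0.0058). Its WT libraries were lower at day 8 than at day 0, and its 1343KO libraries were at 8.83 and 6.32 FPKM at day 0 and at 9.02 and 12.3 at day 8.

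Genes of dividing cells were also lower in WT at day 16 than at day 0, and higher in 1343KO than in WT at day 16. The 12 genes of that list, among them the replication genes Mcm2 and Pcna and the mitotic genes Plk1 and Cdc20, had sums between 1291 and 1359 FPKM in the WT day 0 libraries, between 867 and 878 at day 8 and between 439 and 467 at day 16. In 1343KO the sums lay between 1204 and 1236, 1077 and 1095, and 1090 and 1112 FPKM. In WT at day 8, 7 of the 12 were lower than at day 0, 4 did not pass and 1 was higher (median -0.65). Of all genes tested 24.5% were lower and 26.8% higher. The higher gene was Mki67, a marker of cycling cells (32.0 and 35.3 FPKM, then 51.2 and 54.5, a change of 0.63). All 12 were lower in WT at day 16 than at day 0 (median -1.66; 28.5% of all genes tested were lower), and all 12 were higher in 1343KO than in WT at day 16 (median 1.52; 28.5% of all genes tested were higher). At day 8, 7 of the 12 were higher in 1343KO than in WT and 1 was lower, against 23.3% and 19.6% of all genes tested. None of the 12 was at 0 in both libraries of a group. The markers of fibroblasts, endoderm and macrophages also differed between the lines at day 16: the 8 macrophage markers summed to 201 to 204 FPKM in WT and to 8.67 to 8.70 in 1343KO, where Ptprc and Tyrobp were listed at 0. The part of dividing cells and of these cell types in the levels of the transport genes was not tested.

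A list of 30 other genes of nuclear transport, which the name rule does not take, was counted beside the members. In WT 23 of these 30 were lower at day 16 than at day 0 and 1 was higher, against 28.5% and 32.7% of all genes tested. At day 16, 18 were higher in 1343KO than in WT and 3 were lower, against 28.5% and 24.1%. At day 0, 5 of the 30 were lower in 1343KO (Ddx19a, Ddx19b, Pcid2, Pom121 and Rcc1) and none was higher, against 2.12% and 1.59% of all genes tested. Ddx19a, Ddx19b and Pcid2 are on chromosome 8, where genes at 10 FPKM or more had a median difference of -0.41 at day 0. The part of that chromosome in this count was not tested. Rcc1 (ENSMUSG00000028896, chromosome 4, 132331919 to 132353605), which loads Ran with GTP, was at 79.1 and 86.2 FPKM in WT at day 0 and 11.0 and 11.6 at day 16, and in 1343KO at 49.1 and 43.5 and at 33.7 and 33.0. Its difference in change to day 16 was 2.30 and that of Rcc2, a relative of Rcc1, was 1.97. Part of the Rcc1 value is its lower 1343KO level at day 0 (-0.82). Rcc1 overlaps Snhg3, so reads can be split between the 2. Ranbp17, an exportin relative, went from 13.4 and 20.7 FPKM in WT at day 0 to 1.99 and 1.44 at day 8, and was at 12.9 and 10.0 in 1343KO at day 8. Nxt1, a partner of the mRNA exporter Nxf1, was at 18.5 and 17.5 FPKM in WT and 44.5 and 43.5 in 1343KO at day 16, a difference of 1.24. In contrast the 3 of the 30 lower in 1343KO at day 16 were Ddx19a, a helicase of mRNA export, Ranbp10 and Tmem33, with differences of -0.74, -0.54 and -0.58. Ddx19a and Ranbp10 are on chromosome 8, and Ddx19a was lower by a like amount at day 0 (22.1 and 21.1 against 37.7 and 38.0 FPKM, -0.78). The 1 of the 30 higher in WT at day 16 than at day 0 was Ranbp6, a relative of Ipo5, by 0.62, while Ipo5 fell by 1.87. Nup62cl, a relative of Nup62 outside both the name rule and the 30, also went against the members. It was at 28.1 and 30.6 FPKM in WT at day 0 and at 39.1 and 56.9 at day 16 (0.67 ± 0.22, limma adjusted p = 0.023), and in 1343KO at 55.1 and 42.7 and at 34.7 and 28.3. It was lower in 1343KO than in WT at day 16 (-0.58 ± 0.22, limma adjusted p = 0.048), and its change to day 16 in 1343KO was below that in WT by 1.28 (SE 0.31, limma adjusted p = 0.0086). Nupl2, a nucleoporin of the cytoplasmic side that the 30 also leave out, was lower in WT at day 16 than at day 0 (-1.24) and higher in 1343KO than in WT at day 16 (0.83).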

How the data were processed

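Libraries of poly(A) RNA were prepared with the NEBNext Ultra II kit, per the labels' protocols. The values used are FPKM per gene, deposited by the authors in 1 table; the submitters' processing notes list Cufflinks 2.1.1 and the build GRCm38 (mm10). Which aligner, annotation or filter was used is not stated in the sources used here. Coordinates are those of the table counted from 1. Cufflinks divides reads among overlapping or near-identical genes, so the share of sequence or the overlapping gene is given beside members with the most shared sequence or a same-strand protein-coding overlap; among others, Nup54, Xpot and Tnpo1 share 20.3%, 14.4% and 14.1% of their transcripts, and Nup35, Nup188 and Xpo7 overlap Dusp19, Gm28038 and Npm2 on the same strand.

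Titles, genotype and time labels gave the groups. The labels do not describe the replicates as separate cultures, so the spread behind the p-values may be a technical one. The model was fitted to the 16289 genes that reached 1 FPKM in 2 libraries or more, on log2(FPKM + 1), with limma 3.58.1 in R 4.3.3, with 1 mean per group, all 12 libraries and a trend in the empirical Bayes step. The fit had 6 residual degrees of freedom. Benjamini-Hochberg adjustment ran over all these genes within each of the 11 comparisons, on two-sided p-values. A log2 change on this scale understates changes of low genes. For 2 libraries against 2 the smallest exact permutation p is 0.333, and the calls therefore use the spread pooled over groups and genes. Depth is not stated and was estimated from FPKM of genes with 1 to 3 fragments for an assumed fragment of 200 bases; 81.4% to 85.4% of the values came within 5% of whole fragments. As this is approximate, the data were not tested as counts.

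The members, roles and marker lists were chosen with earlier results of these data known. In each comparison the text draws on up to 5 members in each direction with the largest change among those that passed, without overlap between libraries where 2 groups were compared, and on a fixed set of transport genes. Further members are named as examples of their role, and the genes outside the name rule were chosen after their values were seen. Replicate numbers did not pair the samples (correlations of deviations between -0.036 and 0.036 over 15 pairs of groups). Each comparison had 19 alternative fits: 12 with 1 library left out, the smaller pseudocount 0.1, all genes unfiltered, genes averaging 5 FPKM or more, TPM scaling, median-of-ratios scaling, a replicate block, and the compared libraries alone. After the data had been seen, a count without members on chromosome 8 or with shared sequence was added. Scripts were checked on simulated data. Shared sequence is the share of a transcript's stretches of 50 bases found in transcripts of other genes. Python 3.11.15 (pandas 2.3.3, numpy 2.4.6, matplotlib 3.10.9) made the tables and the figures.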

Additional observations from a re-analysis of the deposited data

Results flagged for a closer look

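The change over time differed between the lines, by a test of the difference itself (limma), for members of several families; the values are the change in 1343KO minus the change in WT on the log2(FPKM + 1) scale. From day 0 to day 8 the largest differences were those of Nup210 (1.61), Nup43 (1.18), Ranbp1 (0.94), Ipo5 (0.93) and Xpo5 (0.84). From day 0 to day 16 they were those of Nup43 (1.87), Ipo5 (1.86), Ranbp1 (1.54), Nutf2 (1.50) and Cse1l (1.45). Each rests on 2 libraries per group, and for Nutf2 part of the value is the lower 1343KO level at day 0. In Ipo5 the 1343KO libraries of all 3 days lay between 131 and 140 FPKM.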

How the results depend on the processing

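No member called in the main fit changed the sign of its change in any alternative fit. The counts below were made separately for each direction, and the shares of all genes given above are those of the main fit. With no filter on low values, 0 members were lower in 1343KO at day 0 and 0 at day 16, 13 and 10 were lower in 1343KO at days 8 and 16 against day 0, and 13 had a higher change to day 8 than WT. With TPM scaling, 17 members were higher and 3 lower in 1343KO at day 8, and 12 had a higher change to day 8. With only the compared libraries, 0 members were lower in 1343KO at day 0 and 0 at day 8, 19 were lower in WT from day 8 to 16, and 7 were lower in 1343KO at day 8 and 7 at day 16 against day 0. With the replicate number as a block (replicate block) 0 members were lower at day 0; the other counts were within 1.5 times the main ones, such as 43 higher at day 16. Without the members on chromosome 8 or with shared sequence 0 were lower at day 0. That count was fixed beforehand, because Nutf2, the 1 member called there, is among those left out. With each library left out in turn, the members lower in 1343KO than in WT numbered between 0 and 2 for days 0 and 8 and between 0 and 1 for day 16. Those lower than at day 0 within 1343KO numbered between 11 and 21 for day 8 and between 7 and 17 for day 16, and those with a higher change in 1343KO to day 8 numbered 14 to 21. The causes were not tested. Depth per library was only estimated, and its effect on the members was not tested.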
